A study of Mus musculus with 6 samples.

Results

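Platelet and megakaryocyte genes were followed across the arrays of a mouse series on N-Me, an enhancer of the proto-oncogene Myc that NOTCH1 binds. The set held 10 genes, chosen by name: the granule proteins Pf4, Ppbp and Vwf, and the surface proteins Itga2b, Itgb3, Gp1bb, Gp9, Gp5, Clec1b and P2rx1. They are 10 of the 19057 genes that the platform annotation names, with 15 of the 45281 probes on the array. The knockout animals were N-Me knockout mice of the C57 BL6 strain given tamoxifen at 3 mg/kg in corn oil (KO, 3 mice), and the comparison animals were N-Me wild-type mice of that strain given corn oil alone (WT, 3 mice). Injections were intraperitoneal and the animals were processed 40 h later. Each mouse had 1 Illumina bead array of total RNA. The series describes the knockout as conditional, while the labels name neither the recombinase that tamoxifen would activate, nor the age of the animals, nor the tissue. Genotype and tamoxifen changed together, so their effects cannot be told apart.

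Megakaryocytes are large bone marrow and spleen cells that shed platelets, the cell fragments that plug wounds. Platelets carry chemokines in their alpha granules and recognise injured vessel walls through surface receptors. Glycoproteins IX, V and Ib form a complex that binds von Willebrand factor, integrin alpha IIb with beta 3 binds fibrinogen, CLEC-2 binds podoplanin, and P2X1 is an ion channel opened by ATP. Several of these genes are also used elsewhere: Vwf and Itgb3 in endothelium, and P2rx1 and Clec1b in other blood cells.

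Of the 15 probes, 13 were detected on KO replicates 1 and 2, and 12 on KO replicate 3 and on each WT array, at a detection p under 0.05. Detection on at least 3 arrays was required for a test, which 12 probes of 9 genes passed, each of them on all 6 arrays. The Itgb3 probe was detected on KO replicates 1 and 2 only, with raw signals of 136.7, 153.2 and 129.8 on the KO arrays and 137.5, 141.3 and 140.2 on the WT arrays, so no fold was computed. A further Vwf probe and a further Clec1b probe were not detected on any array.

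Between 18215 and 19486 probes were detected on each, and median raw signals were 121.8 to 132.4, the lowest on KO replicate 1. Over the 19082 tested probes, arrays correlated at r of 0.979 to 0.989 within KO, 0.989 to 0.992 within WT and 0.950 to 0.969 between the groups. These correlations are across probes, which are not independent replicates. Myc transcript was lower in KO, at a log2 fold change of -1.75 ± 0.16 (SE, limma adjusted p = 0.000571). T cell markers were largely detected, with 13 of 15 tested, as were erythroid markers, with 17 of 18. The labels do not give the cell types of the sample. A change in the number of cells of a type and a change in RNA per cell therefore cannot be told apart.

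The 250 bases before an annotated start of transcription were taken from RefSeq (GRCm38.p6) for 8 of the 10 genes. They were searched on both strands for short motifs of megakaryocyte factors. For Gp9 and P2rx1 the start used lies inside the annotated gene span, so the window covers gene sequence, wholly for Gp9 and partly for P2rx1. The GATA motif was AGATAA or TGATAA or AGATAG or TGATAG, the ETS motif was AGGAAG or CGGAAG, and the RUNX motif was TGTGGT. The motifs did not overlap one another in these windows. At least 1 GATA motif lay in 4 of the 8 windows, an ETS motif in 5 and a RUNX motif in 1, that of Gp9. Of the 32851 windows in the table, 26.5%, 39.2% and 14.0% held them. The windows of 4 genes are shown because their transcripts give the 2 patterns of higher signal described below, Pf4, Itga2b and Gp5 with 1 low KO array and Clec1b without. Capitals mark the motifs.
Pf4 (chr5:90772185-90772434, plus strand): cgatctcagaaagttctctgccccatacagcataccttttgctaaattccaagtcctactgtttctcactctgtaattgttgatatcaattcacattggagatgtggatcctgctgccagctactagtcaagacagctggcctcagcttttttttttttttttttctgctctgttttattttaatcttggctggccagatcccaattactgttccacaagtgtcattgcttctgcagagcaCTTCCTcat
Itga2b (chr11:102469884-102470133, minus strand): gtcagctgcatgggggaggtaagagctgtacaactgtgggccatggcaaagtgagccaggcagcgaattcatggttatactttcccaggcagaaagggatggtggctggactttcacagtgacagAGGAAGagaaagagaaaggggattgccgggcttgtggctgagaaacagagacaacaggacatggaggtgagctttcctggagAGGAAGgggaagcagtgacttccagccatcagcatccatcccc
Gp5 (chr16:30310782-30311031, minus strand): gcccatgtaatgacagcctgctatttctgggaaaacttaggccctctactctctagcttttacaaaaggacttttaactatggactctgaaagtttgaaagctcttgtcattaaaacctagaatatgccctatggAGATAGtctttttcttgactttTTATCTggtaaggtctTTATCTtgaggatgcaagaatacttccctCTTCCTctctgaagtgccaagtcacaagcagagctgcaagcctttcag
Clec1b (chr6:129397047-129397296, plus strand): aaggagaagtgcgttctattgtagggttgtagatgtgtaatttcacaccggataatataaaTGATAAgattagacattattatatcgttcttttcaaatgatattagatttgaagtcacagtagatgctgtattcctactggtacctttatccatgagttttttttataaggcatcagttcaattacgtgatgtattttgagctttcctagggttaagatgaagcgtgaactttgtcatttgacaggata
The Pf4 window had 1 ETS motif, starting 9 bases before the start, and no GATA motif of these letters. Itga2b had 2 ETS motifs, at 125 and 43 bases. Gp5 had 3 GATA motifs, at 115, 93 and 77 bases, and 1 ETS motif at 48. Clec1b had 1 GATA motif at 189 bases. P2rx1, whose transcript was lower in KO, had 2 GATA motifs. A match of letters is a description of the window and not a bound site.

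The data separated the 9 tested genes into 3 patterns. Vwf and Clec1b were higher on all 3 KO arrays than on any WT array, P2rx1 was lower on all 3, and Pf4, Ppbp, Itga2b, Gp1bb, Gp9 and Gp5 were high on KO replicates 2 and 3 while KO replicate 1 lay at or near the WT level. Of the 12 tested probes, 3 were higher and 2 lower in KO at a limma adjusted p under 0.05 over all tested probes. The corresponding shares of all tested probes were 15.7% higher and 16.5% lower, 32.2% in either direction. The median log2 difference of the 12 probes was 0.62, against -0.03 over all tested probes. KO arrays lay above WT arrays for 3 probes and below for 2, where 22.5% of all tested probes lay wholly above, 24.6% wholly below and 47.2% either way.

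**Figure D1:**
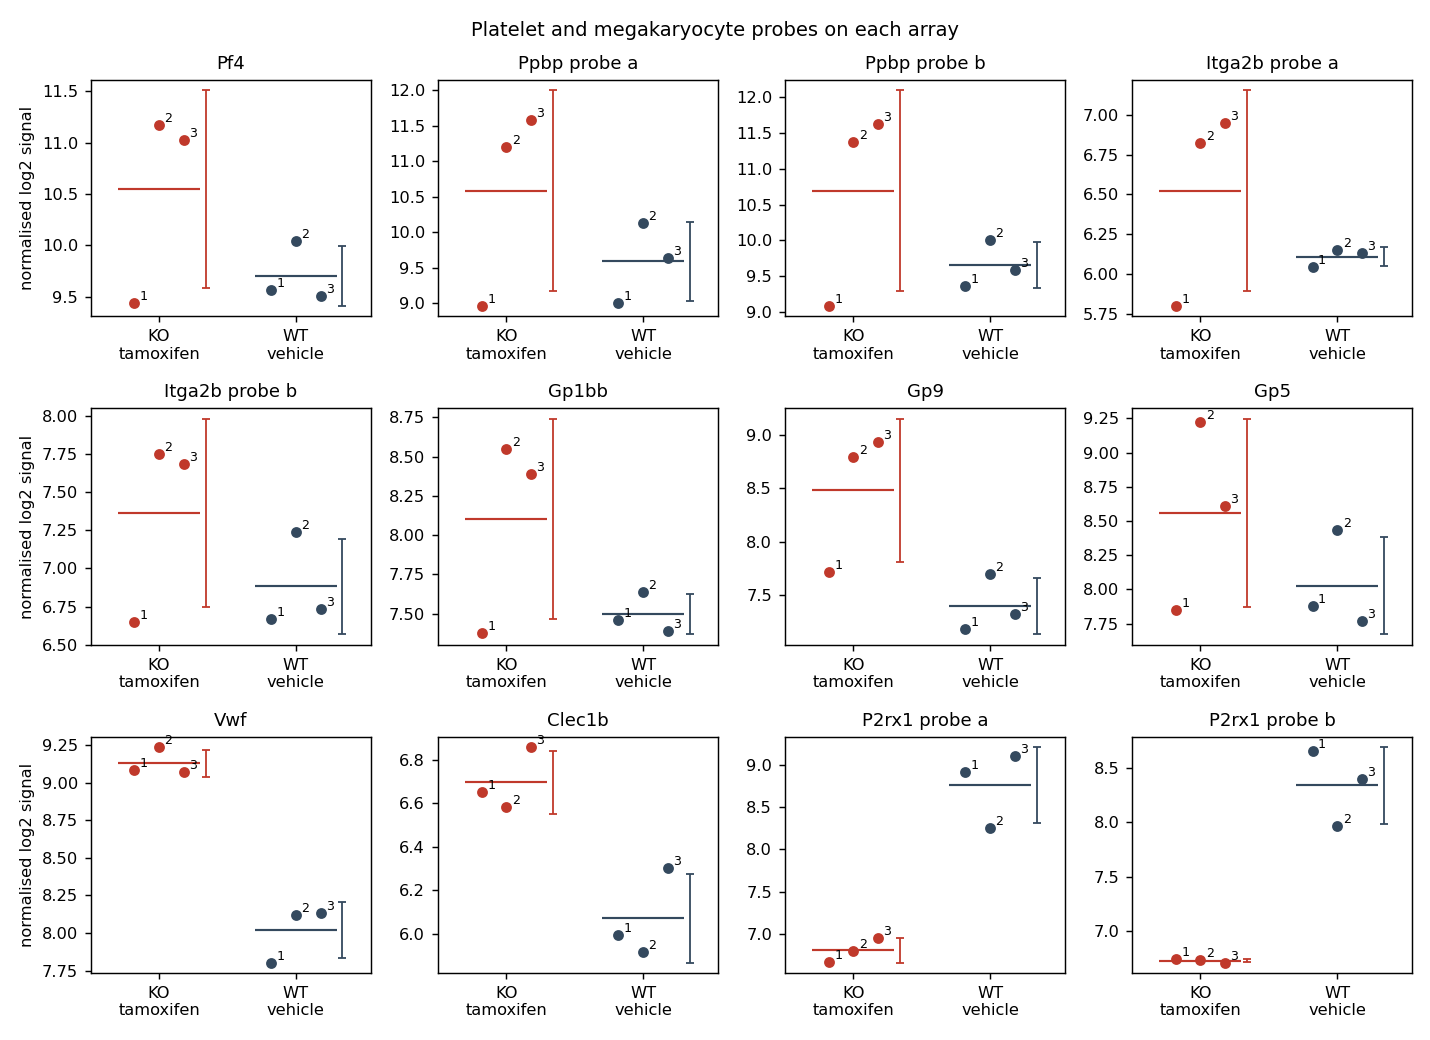
Normalised log2 signal (y axis) of the 12 tested platelet and megakaryocyte probes, with 1 point per array numbered by replicate, the group mean as a line and the SD as an error bar (3 arrays per group). KO replicate 1 lies apart from KO replicates 2 and 3 for Pf4, Ppbp, Itga2b, Gp1bb, Gp9 and Gp5, and beside them for Vwf, Clec1b and P2rx1.

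Among the granule proteins, Pf4 encodes platelet factor 4, a chemokine that binds heparin and is a common marker of the megakaryocyte lineage. Its normalised log2 signal was 9.44, 11.17 and 11.02 on KO replicates 1, 2 and 3, against 9.56, 10.04 and 9.51 on WT replicates 1, 2 and 3. KO replicate 1 was the lowest array of all, and the groups overlapped. Pf4 averaged 10.55 ± 0.96 in KO and 9.70 ± 0.29 in WT (SD, n = 3 each). The difference was 0.84 ± 0.41 (SE, log2), with a 95% interval of -0.09 to 1.78 and a limma adjusted p of 0.149. In raw intensity, the same probe read 677.3, 2665.3 and 2077.8 on the KO arrays, against 857, 1216.1 and 824.2 on the WT arrays.

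Ppbp lies beside Pf4 on chromosome 5 and encodes pro-platelet basic protein, the precursor of the neutrophil-attracting chemokine NAP-2. Its probe ILMN_2908435 (probe b in the plots) read 9.09, 11.38 and 11.62 on the KO arrays, against 9.37, 10.01 and 9.59 on the WT arrays. The raw intensities were 553, 3030.6 and 3115.5 in KO, against 762.4, 1199.1 and 868.6 in WT. Ppbp had the widest spread within KO of the tested genes, with an SD of 1.40 for this probe, larger than that of 99.6% of all tested probes. The difference was 1.04 ± 0.57 (SE, log2), with an interval of -0.27 to 2.35 (limma adjusted p = 0.199). The other Ppbp probe (probe a) had the same order of KO arrays, at 8.97, 11.19 and 11.59, against 9.01, 10.13 and 9.64 in WT.

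Vwf encodes von Willebrand factor, the adhesive protein of endothelial and platelet granules. It read 9.08, 9.23 and 9.07 on the KO arrays, against 7.80, 8.12 and 8.13 on the WT arrays. The KO arrays were close to each other and all lay above the WT arrays. Vwf averaged 9.13 ± 0.09 in KO and 8.02 ± 0.19 in WT (SD, n = 3 each), a 2.16-fold rise (log2 difference 1.11 ± 0.14, SE; limma adjusted p = 0.00165). Endothelial markers were also higher in KO: 12 of 16 tested rose and 0 fell. Of all tested genes, by their brightest probe, 18.6% were higher and 15.9% lower. The summed level of the endothelial markers was 10101, 8191 and 8938 on KO replicates 1 to 3, against 6310, 6216 and 5598 on WT replicates 1 to 3. Within each group the arrays stood in another order than for Vwf. Kdr, Emcn, Flt4 and Lyve1 did not pass the detection filter. The part of endothelial RNA in the Vwf rise was not tested.

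The glycoprotein Ib-IX-V complex was measured through Gp1bb, Gp9 and Gp5, which encode its beta, IX and V chains. Gp9 read 7.71, 8.79 and 8.94 on the KO arrays, against 7.18, 7.69 and 7.32 on the WT arrays. KO replicate 1 lay just above the highest WT array, so the groups did not overlap. Gp9 rose 2.12-fold (1.08 ± 0.31, SE, log2; limma adjusted p = 0.0269). The call was lost without KO replicate 2 (adjusted p = 0.0770), KO replicate 3 (0.0941), WT replicate 1 (0.0914) or WT replicate 3 (0.0849), and with no filter on dim probes (0.0952).

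Gp1bb read 7.37, 8.55 and 8.39 on the KO arrays, against 7.46, 7.64 and 7.39 on the WT arrays, and Gp5 read 7.85, 9.22 and 8.61 against 7.88, 8.43 and 7.77. On KO replicate 1 both lay within or below the range of the WT arrays. The Gp1bb difference was 0.61 ± 0.28 (SE, log2; interval -0.03 to 1.25; limma adjusted p = 0.130). The Gp5 difference was 0.53 ± 0.32 (interval -0.21 to 1.27; adjusted p = 0.242). In the RefSeq table Gp1bb overlaps Septin5, and Clec1b overlaps Clec12b, so their probes are less certain than the others.

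Itga2b encodes integrin alpha IIb, the platelet fibrinogen receptor chain that also marks early megakaryocytes. Its probe ILMN_2911123 (probe b) read 6.65, 7.75 and 7.68 on the KO arrays, against 6.67, 7.24 and 6.74 on the WT arrays. The difference was 0.48 ± 0.30 (SE, log2; interval -0.19 to 1.15; limma adjusted p = 0.246). The other probe (probe a) read 5.80, 6.82 and 6.95 in KO, against 6.04, 6.15 and 6.13 in WT, where the SD was 0.06. For both, KO replicate 1 was the lowest of the 6 arrays.

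Clec1b encodes CLEC-2, a receptor that starts platelet activation through the kinase SYK. The detected probe read 6.65, 6.58 and 6.86 on the KO arrays, against 5.99, 5.92 and 6.30 on the WT arrays. All KO arrays lay above all WT arrays, and KO replicate 1 was in the middle of its group. Clec1b rose 1.54-fold (0.62 ± 0.15, SE, log2; limma adjusted p = 0.0156). The raw signals were dim, at 185.9, 219 and 218.9 in KO and 164.5, 165.3 and 177.5 in WT, and without background correction the log2 difference was 0.28. The call was lost without KO replicate 3 (adjusted p = 0.0564) or WT replicate 1 (0.0600).

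P2rx1 encodes P2X1, the ATP-gated cation channel of platelets, which is also found on other blood cells and smooth muscle. Its probe ILMN_2932453 (probe a) read 6.66, 6.79 and 6.95 on the KO arrays, against 8.93, 8.25 and 9.11 on the WT arrays. Its other probe (probe b) read 6.74, 6.73 and 6.71 in KO, against 8.66, 7.96 and 8.40 in WT. The groups lay far apart for both. P2rx1 fell to 6.80 ± 0.15 in KO, against 8.76 ± 0.45 in WT (SD, n = 3 each) for probe a, where it was 3.89-fold lower in KO. Its log2 fold change was -1.96 ± 0.22 (SE, limma adjusted p = 0.00111), and probe b gave -1.61 ± 0.18 (adjusted p = 0.00111). Both probes kept the call under each alternative in which they were tested, although without background correction their changes were -1.33 and -1.04. Of 13 tested T cell markers, 3 fell, 1 rose and 9 did not pass, at a median log2 difference of -0.05. Of all tested genes, by their brightest probe, 15.9% were lower in KO and 18.6% higher. The summed level of the T cell markers, which weighs the brightest most, was 51423 to 53548 in KO and 53011 to 55818 in WT. Their mean deviation from the WT mean was -0.42, -0.37 and -0.40 on KO replicates 1 to 3. On WT replicates 1 to 3 it was 0.07, -0.04 and -0.03. The markers that fell mark immature T cells: Rag1 at -2.80 ± 0.20, Ptcra, the pre-T receptor chain, at -1.94 ± 0.20 and Dntt at -1.25 ± 0.19. Themis rose by 0.53 ± 0.13. The T cell receptor complex genes Cd3e at -0.05, Cd3g at 0.10, Cd3d at -0.16 and Cd247 at 0.38 did not pass. They were named with their values known. For Cd3d all KO arrays lay below the WT arrays, and for Cd247 all lay above. Cd5 and Cd8a did not pass the detection filter. The part of T cell RNA in the P2rx1 fall was not tested.

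With 3 arrays a group there are 20 ways to assign the labels, so a 2-sided exact permutation p cannot be smaller than 0.1. The p was 0.1 for Gp9, Vwf, Clec1b and both P2rx1 probes, 0.3 for Gp5 and 0.4 for the probes of Pf4, Ppbp, Itga2b and Gp1bb.

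**Figure D2:**
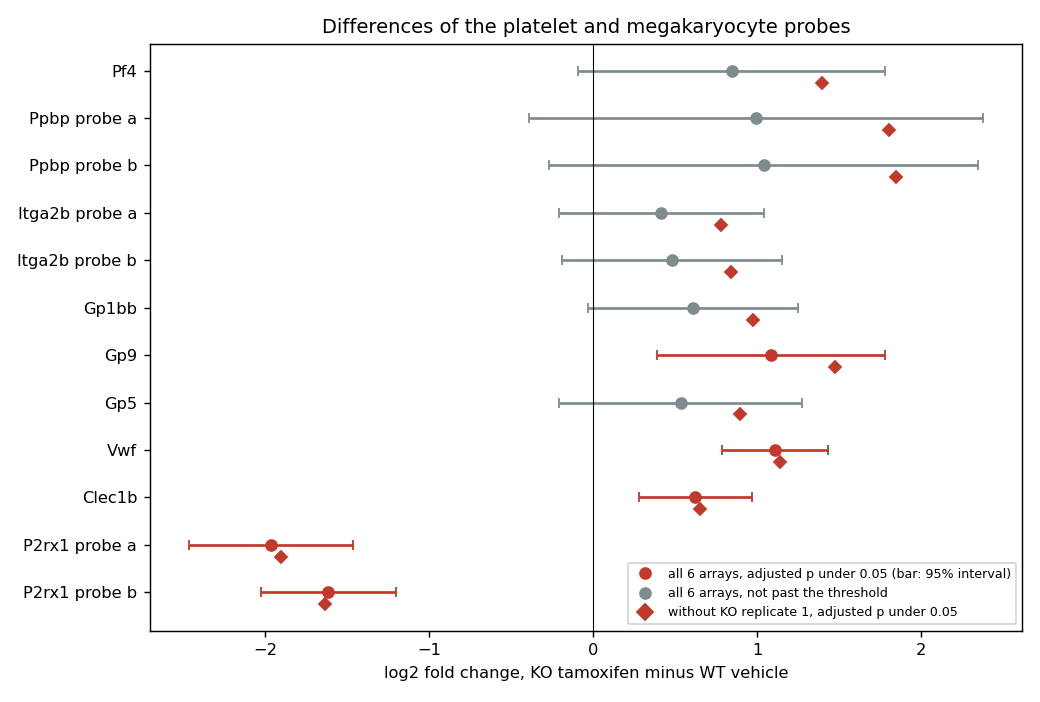
Log2 fold change, KO tamoxifen minus WT vehicle (x axis), of each tested probe. Circles use all 6 arrays with 95% intervals, red where the adjusted p is under 0.05, and diamonds leave out KO replicate 1. Without that array, 10 probes were higher and 2 lower past the threshold.

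The call of 7 probes, those of Pf4, Ppbp, Itga2b, Gp1bb and Gp5, depended on KO replicate 1. That array was the lowest KO array for 9 of the 12 tested probes and fell back into or below the WT range for these 7, while P2rx1 was below the WT range on all KO arrays. Without it, 10 probes were higher and 2 lower in KO, where 16.9% of all tested probes were higher and 18% lower. The log2 differences without it were 1.40 ± 0.19 for Pf4 (SE, limma adjusted p = 0.00184), 1.84 ± 0.20 for Ppbp probe b, 0.98 ± 0.15 for Gp1bb, 1.47 ± 0.18 for Gp9, 0.89 ± 0.25 for Gp5 and 0.84 ± 0.19 for Itga2b probe b. Vwf, Clec1b and P2rx1 hardly moved, at 1.14 ± 0.16, 0.65 ± 0.17 and -1.90 ± 0.25 (probe a). Among the WT arrays, replicate 2 was the highest for 8 of the 12 probes, those of Pf4, Ppbp, Itga2b, Gp1bb, Gp9 and Gp5. The shares of all tested probes with KO replicate 1 lowest in KO or WT replicate 2 highest in WT were not computed. These counts therefore do not show a trait particular to these genes. The labels give no reason to leave out either array.

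**Figure D3:**
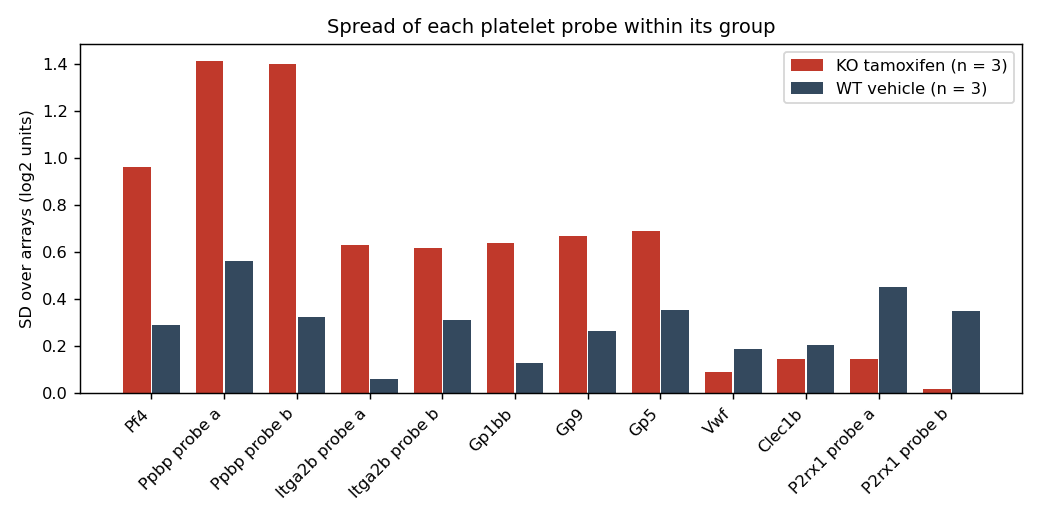
SD over the 3 arrays of each group (y axis, log2 units) for each tested probe. The KO SD is above the WT SD for 8 of the 12 probes, a share not computed over all tested probes. It is 0.62 to 1.41 for those 8. For Vwf, Clec1b and P2rx1 the KO SD is 0.02 to 0.15, below the WT SD.

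Pf4, Ppbp, Itga2b, Gp1bb, Gp9 and Gp5 were grouped by their low KO replicate 1, so some parallel variation among them follows from the grouping. Differences between 2 genes within an array show how far they kept the same proportion. Between 2 probes of the same gene, such a difference ranged over 0.48 log2 units for Itga2b, 0.48 for Ppbp and 0.79 for P2rx1. Ranges of that size or below cannot be told apart from differences between probes. For Itga2b and Gp1bb the difference ranged over only 0.40 log2 units across the 6 arrays, the narrowest of all pairs of tested member genes, and for Pf4 and Gp1bb over 0.57. Itga2b and Gp5 had a range of 0.54, and Gp1bb and Gp5 of 0.58. Some pairs of the group were wider, at 1.07 for Gp9 and Gp5 and 1.77, the widest of the group, for Ppbp and Gp5. Vwf and Clec1b, outside the group, had a range of 0.84. Pf4 and Ppbp, neighbours on the chromosome, had a range of 0.94. P2rx1 departed most, with a range of 4.22 against Ppbp.

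Other genes of platelets and megakaryocytes came from lists written from textbook knowledge, with 1 probe, the brightest, per gene. Over all 10209 genes so represented, 18.6% were higher and 15.9% lower in KO, with a median log2 difference of 0.0011. Of 18 tested platelet receptors and surface proteins, 8 rose and 1 fell, at a median of 0.56, and 12 were higher and 2 lower (F2rl3 and the thromboxane receptor gene Tbxa2r) without KO replicate 1. Cd226, an adhesion receptor shared with T and NK cells, rose by 1.53 ± 0.26 (SE, log2), the tetraspanin gene Cd9 by 1.23 ± 0.24 and P2ry1, an ADP receptor, by 0.91 ± 0.29. F2rl3, which encodes the thrombin receptor PAR4, fell by 1.05 on the log2 scale and stood at 8.41, 8.71 and 8.85 on the KO arrays, against 9.85, 9.97 and 9.29 on the WT arrays. Gp6, Itga2 and Cd36 did not pass the detection filter.

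Of the 18 receptor and surface genes, 11 had KO replicate 1 as the lowest KO array and 7 did not. From those with a low KO replicate 1, 3 are given as examples, picked with their values known, so they describe no class of genes. Treml1, an alpha granule membrane receptor, read 7.16, 8.84 and 9.14 in KO, against 7.32, 7.87 and 7.11 in WT. Mpig6b, an inhibitory receptor of megakaryocytes, read 6.33, 8.11 and 8.24 in KO, against 6.90, 7.11 and 7.02 in WT. P2ry12, the ADP receptor that clopidogrel blocks, read 5.13, 6.33 and 6.26 in KO, against 5.12, 5.57 and 5.43 in WT. Selp, the alpha granule adhesion receptor shared with endothelium, was not low on KO replicate 1, at 6.86, 6.87 and 6.55 in KO, against 5.81, 6.03 and 6.42 in WT. For Treml1, Mpig6b and P2ry12 with all arrays, the limma adjusted p was 0.150, 0.365 and 0.211. Without KO replicate 1 the limma adjusted p was 0.00254, 0.00134 and 0.00517. These genes were picked for a low KO replicate 1, so the smaller p without it follows from the choice and is no evidence.

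Of 17 granule and secretion genes, 5 rose and 2 fell, at a median of 0.36. Vamp8, a SNARE protein of granule release, rose by 1.21 ± 0.20 (SE, log2), Sparc by 1.06 ± 0.19, the growth factor gene Pdgfa by 1.03 ± 0.14 and Mmrn1, multimerin of platelets and endothelium, by 0.76 ± 0.14. Both genes that fell serve vesicle trafficking and were picked here with their values known, Vps33b at -0.47 ± 0.14 and Lyst at -0.44 ± 0.13. Of 19 genes of the cytoskeleton and of integrin activation, 7 rose and 0 fell, at a median of 0.47, and without KO replicate 1 the count was 11, where 19.4% of all genes were higher. Tuba8 rose by 1.56 ± 0.25, the myosin light chain gene Myl9 by 1.25 ± 0.30, Cavin2 by 1.13 ± 0.17 and Rasgrp2, the RAP1 activator of platelets, by 0.91 ± 0.13. Tubb1, the megakaryocyte beta tubulin, named after its values were seen, read 8.56, 10.42 and 10.56 in KO, against 8.65, 9.25 and 8.89 in WT.

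Of 14 tested signalling genes below GPVI and CLEC-2, 7 rose and 0 fell, at a median log2 difference of 0.35, with Plcg2 at 1.49 ± 0.24 (SE, log2), the adaptor Dok2 at 1.32 ± 0.16, Pik3cb at 1.06 ± 0.16 and the kinase Btk at 1.02 ± 0.18. These genes also serve lymphoid or myeloid cells, and Syk did not pass the detection filter. Of 4 thromboxane and eicosanoid genes, 1 rose, Tbxas1, thromboxane synthase, by 0.96 ± 0.15, and 0 fell, at a median of 0.36. Alox12, platelet 12-lipoxygenase, stood at 8.35, 10.06 and 9.63 in KO, against 8.29, 8.87 and 8.47 in WT (adjusted p = 0.145), and was named after its values were seen.

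Transcription factors of megakaryocytes were more even across the KO arrays. Of 19 tested, 8 rose and 2 fell, at a median of 0.37. Gata1, the master factor of erythroid and megakaryocytic cells, rose by 1.37 ± 0.20 (SE, log2), Meis1 by 1.19 ± 0.22, Tal1 by 1.17 ± 0.20 and Lyl1 by 1.14 ± 0.17. The pair that fell, likewise picked with values known, was Srf at -0.78 ± 0.16 and Cbfb, the partner of RUNX proteins, at -0.41 ± 0.13. Gata1 read 8.96, 9.22 and 9.60 on the KO arrays, against 7.72, 8.17 and 7.78 on the WT arrays, with no overlap. The count of 8 was the same without KO replicate 1. Most of these factors are shared with the erythroid lineage, of whose markers 12 of 17 tested rose and 0 fell, at a median of 0.84. Those that did not pass were the globin genes and Slc4a1. Their log2 differences were 0.16 for Hba-a1, 0.47 for Hbb-b2, -0.04 for Hbb-bs, 0.15 for Hbb-bt and -0.18 for Slc4a1. All of these but Hbb-b2 were very bright, with KO means of 14.5 to 14.9.

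**Figure D4:**
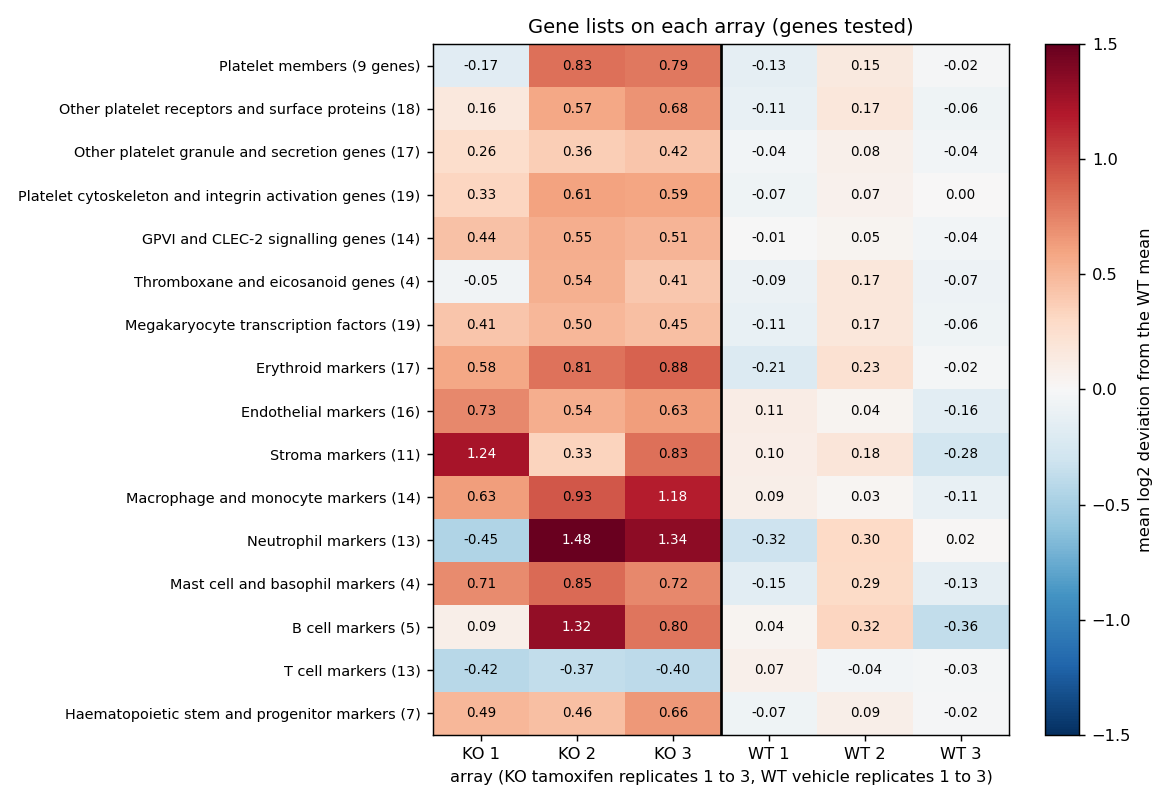
Mean log2 deviation from the WT mean of the genes of each list on each array, with the number of genes tested in brackets. The 9 platelet genes and the 13 neutrophil markers are at -0.17 and -0.45 on KO replicate 1, and at 0.83 and 1.48 on KO replicate 2 and 0.79 and 1.34 on KO replicate 3. The platelet mean pools the 3 patterns. On KO replicate 1, P2rx1 is at -2.10 and Pf4, Ppbp, Itga2b, Gp1bb and Gp5 are at -0.57 to -0.12. Gp9, Clec1b and Vwf are at 0.31, 0.58 and 1.06 on that array.

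Markers of other cell types were set beside the platelet genes. Neutrophil markers had the same low KO array: their mean deviation from the WT mean was -0.45, 1.48 and 1.34 on KO replicates 1 to 3, against -0.32, 0.30 and 0.02 on the WT arrays. Of the 13 tested, 0 passed the limma test with all arrays, 2 had an unadjusted p under 0.05, and 11 were higher without KO replicate 1, at a median of 0.69 with all arrays. The summed level of the neutrophil markers was 4368 on KO replicate 1, 17720 and 14925 on KO replicates 2 and 3, and 5237 to 7673 on the WT arrays. The smallest p among them belonged to Mmp9 at 0.55 ± 0.21 (SE, log2, limma adjusted p = 0.0773), Prtn3 at 1.56 ± 0.68 (0.109) and Cebpe at 0.55 ± 0.26 (0.140). KO replicate 1 was the lowest KO array for 12 of the 13. The exception was Mmp9, at 7.11, 7.41 and 7.11 in KO. Retnlg alone had a negative difference with all arrays, at -0.43 ± 0.35. For B cell markers 1 of 5 rose, Cd22 by 1.93 ± 0.19, and 0 fell, at a median of 0.52, with 3 higher without KO replicate 1 (Cd22, Cd79b and Blnk). Ms4a1, Pax5 and Vpreb3 did not pass the detection filter. The part of neutrophils and B cells in the platelet values was not tested.

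In the remaining lists other than the T cell list, the mean deviation of KO replicate 1 from the WT mean was above 0, from 0.49 for stem and progenitor markers to 1.24 for stroma markers. Of 14 macrophage and monocyte markers 13 rose, led by C1qa at 1.30 ± 0.20 (SE, log2), Lyz2 at 1.19 ± 0.22, Cd14 at 1.07 ± 0.14 and C1qb at 1.04 ± 0.19, and 0 fell, at a median of 0.95. Of 11 stroma markers 6 rose and 0 fell, at a median of 0.80, with Col1a1 at 1.08 ± 0.31, Col6a1 at 1.04 ± 0.27, Bgn at 0.98 ± 0.16 and Fn1 at 0.67 ± 0.16, and their mean deviation was higher on KO replicate 1 than on the other KO arrays. The endothelial list had a median of 0.63, with Sox18 at 1.06 ± 0.19, Plvap at 1.04 ± 0.13, Eng at 0.96 ± 0.17 and Flt1 at 0.87 ± 0.20. The erythroid rises were led by Dmtn at 1.46 ± 0.24, Kel at 1.27 ± 0.23, Trim10 at 1.16 ± 0.19 and Ermap at 1.16 ± 0.24. Of 4 mast cell and basophil markers 2 rose, Kit by 1.33 ± 0.25 and Cpa3 by 1.18 ± 0.30, and 0 fell, at a median of 0.76, while Mcpt8, Ms4a2, Fcer1a, Prss34, Cma1 and Tpsb2 did not pass the detection filter. Of 7 stem and progenitor markers 3 rose, Kit, Meis1 and Slamf1 (0.68 ± 0.19), and 0 fell, at a median of 0.34, while Flt3, Hlf, Hoxa9 and Prom1 did not pass the detection filter. 

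The non-member genes whose pattern over the 6 arrays was most like the mean of the 9 tested genes were ranked by root mean square difference among 9059 genes detected on every array. Each signal was first centred on its own mean. The member profile was -0.41, 0.59 and 0.55 on the KO arrays, against -0.37, -0.09 and -0.26 on the WT arrays. The nearest were Ltb4r1, a leukotriene B4 receptor, at a root mean square difference of 0.075, B3gat2 at 0.075, BC028528 at 0.076, Cat, which encodes catalase, at 0.080 and Tfcp2 at 0.094. Ltb4r1 read 6.18, 7.01 and 7.03 on the KO arrays, against 6.18, 6.53 and 6.19 on the WT arrays, and its log2 difference of 0.44 ± 0.23 (SE) did not pass (limma adjusted p = 0.184).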

How the data were processed

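RNA from 6 mice was hybridised after biotin labelling, per the labels. Each array has a raw intensity and a detection p-value per probe (45281 probes) in the table as deposited, per the file headers. The upstream software is not given in the sources used here. A second deposited table holds log2 values. Taking log2 of the raw intensities and then quantile-normalizing gave those values to within 5e-05. Its scale is therefore known and its genes are uncentred (median 7.01 on each array).

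Intensities were normalized with neqc of limma 3.58.1 (R 4.3.3), with controls inferred from detection p-values and an offset of 16, so folds of dim probes depend on the background correction. The 19082 probes with a detection p below 0.05 on 3 or more arrays were tested with lmFit and eBayes for KO tamoxifen minus WT vehicle, 2-sided, with Benjamini-Hochberg adjustment over all of them and a threshold of 0.05. The titles call the arrays biological replicates, and their small number limits precision. In the platform annotation 34885 probes carried a single symbol, 18 carried several and 10378 had none; 34807 matched the RefSeq table. Named genes were all members, and from each list up to 4 called genes with the largest change, or up to 3 with the smallest p where none was called, with exceptions stated, plus the 5 nearest patterns. The members and lists were chosen with earlier results of these data known. The fit was checked on simulated data. Alternatives were other background corrections, scaling, filters, 1 probe per gene, the deposited log2 table, a replicate block, trend and robust eBayes, and leaving out each array. Figures used matplotlib 3.10.9.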

Additional observations from a re-analysis of the deposited data

How the results depend on the processing

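Across the alternatives, 163 of 177 values of single platelet probes kept their direction and side of the threshold, 7 gained a call (all without KO replicate 1) and 7 lost one (Gp9 and Clec1b, as given above); 0 reversed. With 1 probe per gene, 1 platelet probe was lower, against 2, because P2rx1 then counts once, and 1748 of all genes were lower. With single arrays left out, 1 to 10 platelet probes were higher (1 without KO replicate 3 or WT replicate 1, 10 without KO replicate 1) and 2 were lower in each case. Of all tested probes, 1889 to 3228 were then higher and 1845 to 3438 lower, against 3004 and 3143; the lower counts came without WT replicate 3 (1889 and 1929), WT replicate 1 (1907 and 1845) or KO replicate 3 (2004 and 2065). Without KO replicate 1, an alternative chosen after seeing the data, 11 cytoskeleton genes, 11 neutrophil markers, 3 B cell markers and 2 thromboxane genes were higher and 2 platelet receptor genes lower; other lists stayed within 1.5 times. The cause of these shifts was not tested.

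Same-numbered KO and WT arrays share only a number: their deviations correlated at 0.10, 0.15 and -0.11, and KO replicates 1 and 3 correlated best with another number. With the replicate block, 3 platelet probes were higher and 2 lower, as without it, and 2983 and 2977 of all tested probes. Dim probes near background (Itgb3, the further Vwf and Clec1b probes) give no measure of change.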
